A study of Mus musculus with 7 samples.

Results

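The Foxd and Foxp families are branches of the forkhead (Fox) transcription factors, proteins that bind DNA through a winged-helix domain. The 8 members described here, Foxd1, Foxd2, Foxd3, Foxd4, Foxp1, Foxp2, Foxp3 and Foxp4, are among 21475 genes named on the array. They were taken by gene name from its annotation, which gave 13 of the 41174 probes. The probes were picked without use of measured values, but the members were chosen with earlier results of these data known. RNA came from the posterior second heart field (pSHF), the mesoderm behind the heart that feeds the atrial septum, dissected at embryonic day 9.5 (E9.5) from Shh -/- embryos in 4 pools and from Shh +/+ embryos in 3 pools. Every embryo came from a cross of Shh +/- parents on a mixed background that the labels write as C56B/6 and CD-1, after superovulation of the dams. The Shh loss was present in the whole embryo and not in the pSHF alone, each pool mixed the tissue of several embryos, and per the methods the dissected piece kept the foregut attached. Each pool was hybridized to 1 single-colour Agilent array. The question asked was which transcripts of this tissue depend on Sonic hedgehog (Shh), the secreted signal that reaches the pSHF from the foregut.

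Foxd proteins act mostly as repressors or competence factors in early mesoderm and neural crest. Foxd1 marks the stromal mesenchyme of the kidney and the temporal retina, Foxd2 is found in paraxial and intermediate mesoderm, and Foxd3 is a specifier of neural crest and of pluripotent cells. Foxp proteins form dimers with each other through a leucine zipper, Foxp1, Foxp2 and Foxp4 are co-expressed in foregut, lung and heart, and Foxp3 is the defining factor of regulatory T cells.

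The arrays read these genes through 60-base probes, and the 1 pair of probes from different members that resembled each other reads coding sequence of Foxp2 and Foxp4. It is shown because both genes measured lower in the mutants. With the Foxp4 probe shifted by 1 base, 44 of 59 aligned bases were the same (74.6%), and no other pair among the 13 probes shared more than 26 bases. Capitals mark the identical bases. On the mm9 build given in the array annotation, the Foxp2 probe lies on chromosome 6 from 15363873 to 15365044 on the plus strand, and the Foxp4 probe on chromosome 17 from 48006730 to 48008227 on the minus strand. Each of these stretches is longer than the probe, so that both probes cross an intron. Binding of either transcript to the other probe was not tested.
Foxp2 probe A_51_P233753: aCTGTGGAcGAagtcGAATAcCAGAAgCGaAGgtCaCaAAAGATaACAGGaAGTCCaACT
Foxp4 probe A_52_P307628: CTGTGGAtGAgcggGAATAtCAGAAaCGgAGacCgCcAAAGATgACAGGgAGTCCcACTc

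The Foxd probes resembled neither each other nor the Foxp probes to that degree. The first 30 bases of the brightest probe of each measured Foxd gene are given to show how little they share. The Foxd1 probe lies on chromosome 13 from 99126369 to 99126428 on the plus strand, and the Foxd3 probe on chromosome 4 from 99325027 to 99325086 on the plus strand, both on mm9. For Foxd2, on the minus strand of chromosome 4, the annotation places 26 of the 60 bases, from 114578885 to 114578910.
Foxd1 probe A_51_P237783: tctccaagaaatgcctctacttgttcacac
Foxd2 probe A_51_P279931: tcagtggctgccacttttgaccgcaccggg
Foxd3 probe A_51_P286423: ctgtgggggtgggagggacattctttgtac

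Several properties of the arrays bear on every value. Between 60.0% and 70.6% of the probes were well above background on an array, no spot was saturated, and the median spot signal was 86.4 to 145 intensity units over a local background of 21 to 25. Same-numbered pools of the 2 genotypes were run on 1 slide for numbers 1, 3 and 4. The mutant array came first on each of these slides, and its place cannot be told apart from its genotype. Mutant pool 2 lay alone on its slide, and its label records a possible leak. Shh itself measured 9.67, 9.39, 9.22 and 9.32 (log2 signal) in mutant pools 1 to 4 and 10.72, 10.74 and 9.98 in wild-type pools 1, 3 and 4, a difference of -1.08 ± 0.20 (SE) that missed the threshold (limma adjusted p = 0.0659). The levels of the mutant and wild-type pools did not overlap for Shh. Its probe still gave signal in the mutants, and whether that probe lies within the deleted part of the gene was not tested. The study reports that RT-PCR of the isolated tissue, run to check the genotypes, found Shh strongly reduced in the mutants. A set of 14 second heart field and lateral plate markers was measured in full, at a mean level of 10.84 to 10.99 per mutant pool and 11.15 to 11.25 per wild-type pool. Of these markers 8 were lower and 6 higher in the mutants, with a median of -0.07, and Foxf2 (-2.43) differed most.

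Of the 13 member probes, 11 (6 genes) were clearly brighter than background in all pools of either genotype or both, and were tested. None passed an adjusted p under 0.05 in limma, with the adjustment over all 23129 probes tested, of which 66 were lower (0.285%) and 55 higher (0.238%) in the mutants at that threshold. SAM (significance analysis of microarrays, the test the study names) called 0 of the 11, where it called 136 of 23027 probes lower (0.591%) and 127 higher (0.552%). The study itself, with its own probe filter and thresholds, listed Foxd1 as Shh-dependent and near a region bound by the Hedgehog regulator Gli3. Why the results for Foxd1 differ was not tested. A p that misses the threshold does not show that the genotypes were alike. The lowest adjusted p of a member was 0.27. Without adjustment, 8 of the 11 probes were lower at a limma p under 0.05 and 0 were higher, where 4.00% of all tested probes were lower and 3.93% were higher. In 4 of the 11 probes the mutant levels were all below the wild-type levels, as in 3.58% of the 23027 tested probes with a value on all arrays, and in 0 they were all above, as in 4.73%. Probes of 1 gene share their RNA, so these counts stand for 6 genes. The number of probes lower without adjustment was 3 when wild-type pool 1 was left out, and 4 without mutant pool 2, mutant pool 3 or wild-type pool 4.

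**Figure D1:**
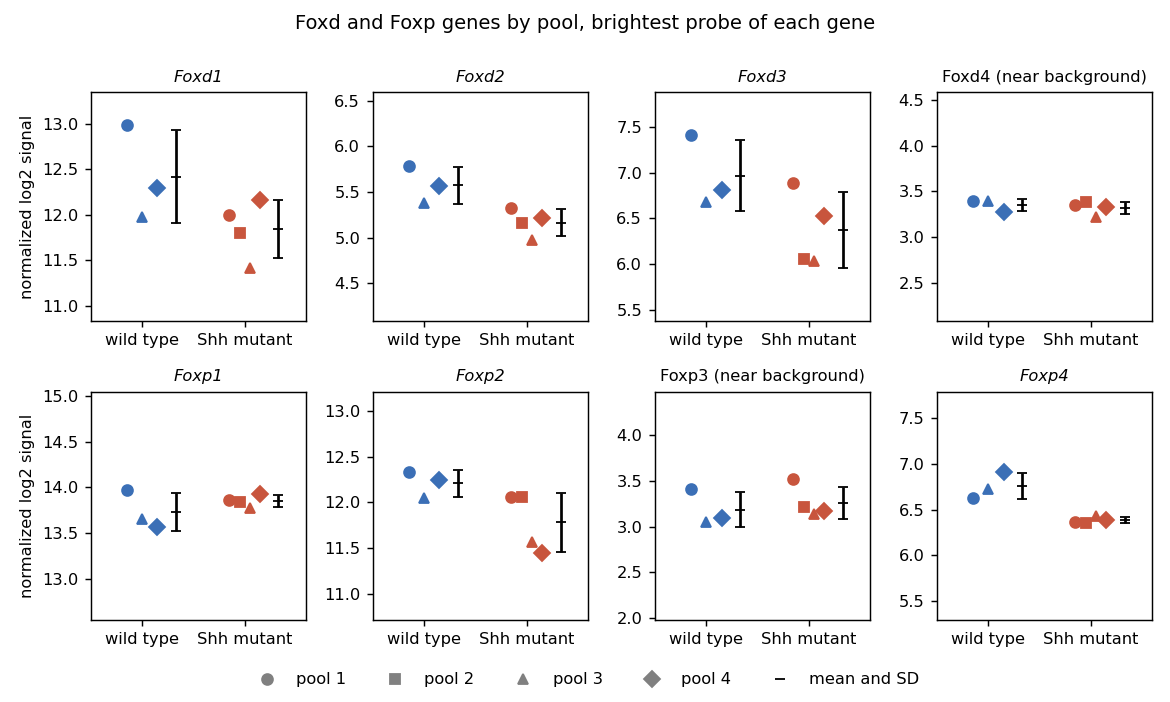
Normalized log2 signal of the brightest probe of each of the 8 genes, 1 point per pool with its number as the symbol, wild type in blue and Shh mutant in red, and the mean with SD (n = 3 and 4) in black; every panel spans 2.5 log2 units. Foxd2 and Foxp4 show no overlap between genotypes, Foxd1, Foxd3 and Foxp2 overlap, Foxp1 overlaps with a slightly higher mutant mean, and Foxd4 and Foxp3 were well above background on 0 arrays.

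Foxd1, the stromal factor, lay lower on average in the mutants without separating from the wild type. Its brightest probe measured 12.00, 11.80, 11.42 and 12.16 in mutant pools 1 to 4 and 12.98, 11.98 and 12.29 in wild-type pools 1, 3 and 4. Wild-type pool 1 stood 0.69 above the next pool, and mutant pools 1 and 4 reached into the wild-type range. The difference was -0.57 ± 0.25 (SE), or 67.1% of the wild-type level (limma adjusted p = 0.624). The second Foxd1 probe, 83 bases further along the transcript, gave -0.61 ± 0.24 with an adjusted p of 0.506. Without wild-type pool 1 the first value was -0.29, and with array weights -0.34. Those weights were 4.72 for wild-type pool 3 and 0.498 to 1.2 for the other arrays, so that pool dominated the wild-type level.

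Foxd2 was dim, and its normalized levels separated by genotype. It measured 5.32, 5.16, 4.97 and 5.21 in mutant pools 1 to 4 and 5.78, 5.38 and 5.56 in wild-type pools 1, 3 and 4. The highest mutant pool lay 0.06 below the lowest wild-type pool. The difference was -0.41 ± 0.14 (SE), 75.5% of the wild-type level, with a limma adjusted p of 0.371. It was -0.16 with quantile normalization, -0.23 without background correction and -0.21 in the authors' values set to 1 median. Its unnormalized signal was 58.6 to 71.4 intensity units in the mutant pools and 67.3 to 75.2 in the wild-type pools. These ranges overlap and are not far above the local background.

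Foxd3, the neural crest specifier, measured 6.89, 6.05, 6.03 and 6.53 in mutant pools 1 to 4. In wild-type pools 1, 3 and 4 it measured 7.41, 6.68 and 6.81. Mutant pool 1 lay above wild-type pools 3 and 4, and the other 3 mutant pools lay below all wild-type pools. The difference was -0.59 ± 0.25 (SE), 66.5% of the wild-type level (limma adjusted p = 0.59), and -0.37 without wild-type pool 1 and -0.38 with array weights. Foxd4 was well above background on 0 of 7 arrays, at 3.22 to 3.39 in all pools, and was not tested.

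The Foxd genes shared a pattern over the pools, part of which extended to Foxp genes. Of the 4 tested Foxd probes 2 read Foxd1. In all 4, wild-type pool 1 was the highest of the 7 pools and mutant pool 3 the lowest. All 12 Foxd differences within a slide were below 0. Wild-type pool 1 was also the highest at both Foxp2 probes and at the brightest Foxp1 probe. All 12 within-slide differences of Foxp2 and Foxp4 were below 0 as well. How often such patterns occur over all probes was not tested. The size of the Foxd differences varied between slides. On slide 1 the Foxd1 probes differed by -0.98 and -1.08, on slide 3 by -0.57 and -0.43, and on slide 4 by -0.13 and -0.12. Foxd2 was steadier, at -0.47, -0.40 and -0.34 on slides 1, 3 and 4. These within-slide differences rest on the same arrays as the pooled ones and are no separate evidence.

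**Figure D2:**
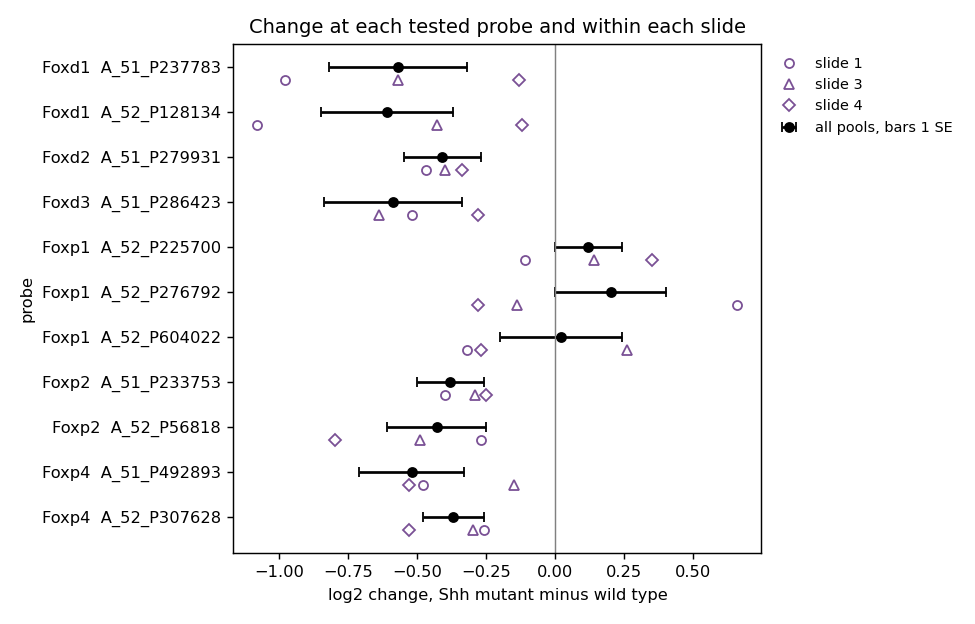
Log2 change (mutant minus wild type) of the 11 tested probes, black points with 1 SE from limma over 7 arrays, and open symbols for the 3 slides that carried both genotypes. The Foxd, Foxp2 and Foxp4 symbols all lie left of 0, while those of the 3 Foxp1 probes fall on both sides.

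Foxp1, a repressor of the Foxp group that is widespread in heart and foregut mesenchyme, gave no difference between genotypes beyond the spread of the pools. Its brightest probe measured 13.86, 13.84, 13.78 and 13.93 in mutant pools 1 to 4 and 13.97, 13.65 and 13.57 in wild-type pools 1, 3 and 4. All 4 mutant pools lay within the wild-type range. The difference was 0.12 ± 0.12 (SE, limma adjusted p = 1). The other probes gave 0.20 ± 0.20 and 0.02 ± 0.22, and of the 9 within-slide differences of the 3 probes 5 were below 0 and 4 above. The 3 Foxp1 probes read different transcripts or parts of the gene, and on slide 1 they gave -0.11, 0.66 and -0.32.

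Foxp2 was lower in the mutants at both probes, by similar amounts. The brightest probe measured 12.06, 12.06, 11.56 and 11.44 in mutant pools 1 to 4 and 12.33, 12.05 and 12.24 in wild-type pools 1, 3 and 4. Mutant pools 3 and 4 were lowest, and mutant pools 1 and 2 lay just above wild-type pool 3. The difference was -0.43 ± 0.18 (SE), 74.4% of the wild-type level (limma adjusted p = 0.59). The coding probe shown above measured 7.45, 7.20, 7.38 and 7.57 against 7.85, 7.67 and 7.82, with no overlap. Its difference was -0.38 ± 0.12 (limma adjusted p = 0.344).

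Foxp4, the lung and foregut partner of Foxp1 and Foxp2, had the lowest adjusted p of the 6 tested genes. Its brightest probe, the coding probe shown above, measured 6.37, 6.35, 6.43 and 6.39 in mutant pools 1 to 4. In wild-type pools 1, 3 and 4 it measured 6.63, 6.73 and 6.91. The mutant pools lay within 0.08 of each other and all below the wild type. The difference was -0.37 ± 0.11 (SE), 77.2% of the wild-type level (limma adjusted p = 0.27). The second Foxp4 probe, which shares no such stretch with either Foxp2 probe, measured 5.89, 5.63, 6.30 and 6.29 against 6.37, 6.45 and 6.82. Its likeness to the rest of the Foxp2 transcript was not tested. This second probe gave -0.52 ± 0.19, also without overlap (adjusted p = 0.466).

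Foxp3 was well above background on 0 of 7 arrays, at 3.05 to 3.52 in all pools, and was not tested. Of 8 T lymphocyte genes, Il2ra, Ctla4, Cd3d, Cd4 and Tnfrsf18 likewise lacked a signal well above background in all pools of a genotype. The other 3 were measured, with Ikzf2 at a mean of 8.27 in the mutants and 8.40 in the wild type, Cd3e at 5.33 and 5.74 and Ptprc at 5.35 and 5.04, and none was called in limma (adjusted p = 1, 0.869 and 1).

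Whether relatives changed unequally was tested by the difference between 2 genes within each array, in 6 contrasts over the tested members, with an exact two-sided permutation test over the 35 assignments of the arrays (smallest p it allows, 0.0286). None passed the adjustment over the 6. A contrast alone at the smallest p cannot pass 0.05 after that adjustment, so this outcome says little about any 1 pair. The Foxp1 minus Foxp4 contrast was 0.49 ± 0.17 (SE) higher in the mutants, with no overlap between genotypes (exact p = 0.0286, adjusted p = 0.171). Foxp1 minus Foxp2 was 0.55 ± 0.22 higher, also with no overlap (exact permutation p = 0.0857, adjusted p = 0.257). Both differences were above 0 on slides 1, 3 and 4, at 0.14, 0.44 and 0.88 for Foxp4 and at 0.16, 0.63 and 1.15 for Foxp2. Each gene was read here by its brightest probe. On slide 1 the other Foxp1 probes gave 0.66 and -0.32, against -0.26 for Foxp4 and -0.27 for Foxp2. Contrasts with probes other than the brightest were not tested. Foxp2 minus Foxp4 differed by -0.05 ± 0.23 (exact permutation p = 0.914), and by -0.02, -0.19 and -0.27 on slides 1, 3 and 4. The mean of these slides was -0.16 (exact p = 0.25, the smallest that 3 pairs allow). Among the Foxd genes the contrasts were -0.17 ± 0.19 for Foxd1 minus Foxd2, 0.01 ± 0.18 for Foxd1 minus Foxd3 and 0.18 ± 0.20 for Foxd2 minus Foxd3, with exact permutation p of 0.429, 1 and 0.429, and each had both signs among its slides. These errors leave room for unequal changes within the Foxd genes.

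**Figure D3:**
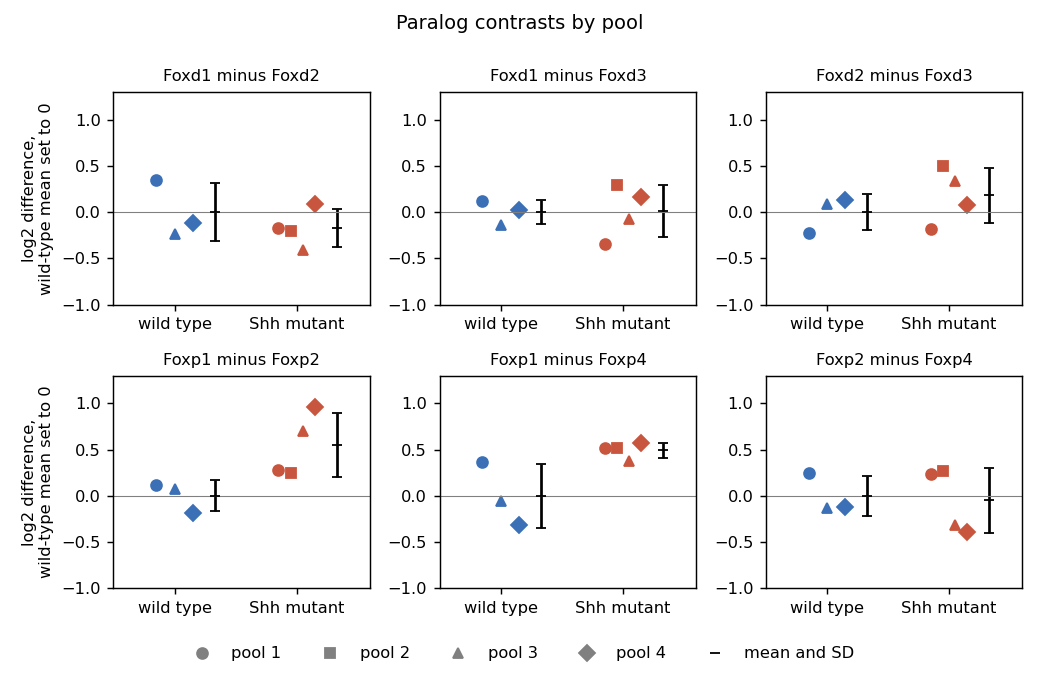
Difference in log2 signal between 2 genes on each array, each gene read by its brightest probe. The mean of the 3 wild-type pools is set to 0, with 1 symbol per pool and the mean with SD in black. The mutant pools lie above all wild-type pools for Foxp1 minus Foxp2 and Foxp1 minus Foxp4, and the genotypes overlap in the other 4 panels.

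The wider pathway gave larger differences than the Foxd and Foxp genes. All 4 Hedgehog target genes on the list were lower, with a median of -1.10, and 1 passed the threshold. That gene was Hhip, the Hedgehog-binding inhibitor (-2.83 ± 0.18, limma adjusted p = 0.00128), while Gli1, a transcription factor of the pathway, gave -1.02 with an adjusted p of 0.066, and the receptor Ptch1 gave -1.17 (adjusted p = 0.141). Of 27 other forkhead genes tested, 20 were lower and 7 higher, with a median of -0.08, and 3 passed the threshold, all lower. Among them were Foxf2 (-2.43) and Foxi2 (-1.48), with limma adjusted p of 0.00215 and 0.035. Foxf1a gave -0.80 with an adjusted p of 0.0924. The median over the 4 tested Foxd probes was -0.58 and over the 7 Foxp probes -0.37, against 0.02 over all probes tested, of which 44.9% were lower and 2.68% were lower by more than 0.5. The 12 genes for co-repressors that Foxp proteins recruit, such as Hdac1, Hdac2, Ctbp1 and Mta1, lay between -0.15 and 0.21, with a median of 0.07 and 0 called in limma (0 with an unadjusted p under 0.05).

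**Figure D4:**
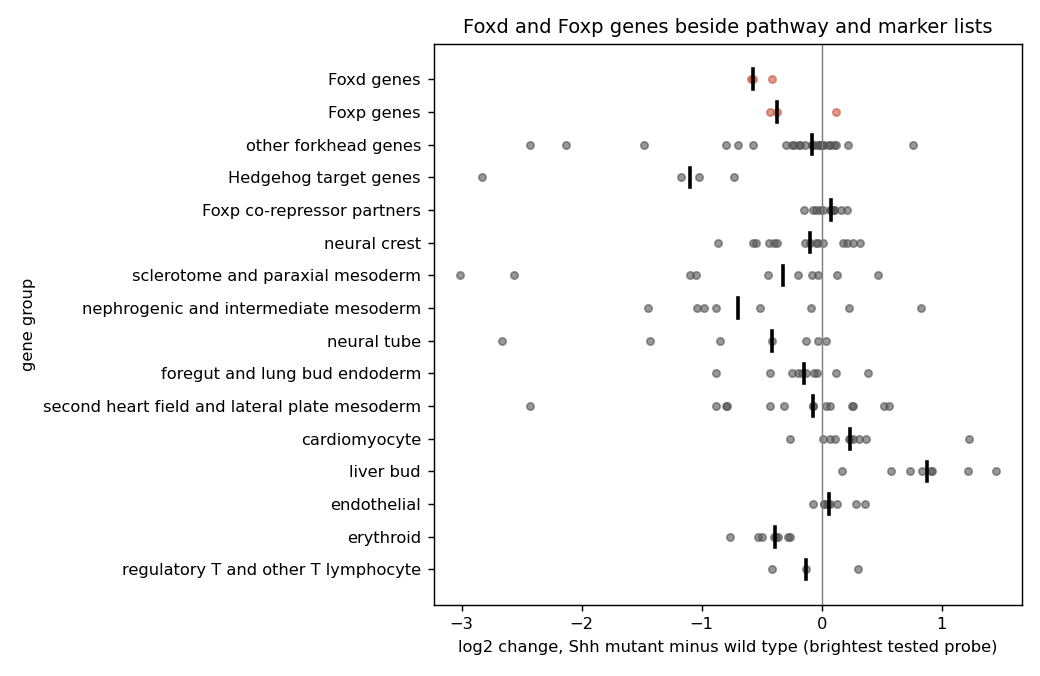
Log2 change (mutant minus wild type) of each gene, read by its brightest tested probe, for the Foxd and Foxp genes (red) and for 14 lists of pathway and cell type genes (grey), with the median of each as a black bar. The 3 Foxd points lie between -0.59 and -0.41, Foxp1 stands apart at 0.12, and the Hedgehog targets have the lowest median, -1.10.

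The tissue was a mixture, and in bulk RNA fewer cells of a type and less RNA per cell cannot be told apart. Foxd3 is a neural crest gene, and of 15 tested crest markers 10 were lower and 5 higher, with a median of -0.10 and none called in limma (0 of 15 adjusted, 5 at an unadjusted p under 0.05, of which Snai2 was higher). The mean crest level was 9.58 to 9.80 per mutant pool and 9.75 to 9.98 per wild-type pool, and Pax7 lacked a signal well above background in all pools of a genotype. Tcfap2a, an early crest factor, gave -0.55, Pax3 -0.57 and Snai1 -0.37, with limma adjusted p of 0.39, 0.562 and 0.595.

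Foxd1 and Foxd2 are known from nephrogenic stroma and from paraxial and intermediate mesoderm. Of 8 nephrogenic and intermediate mesoderm genes 6 were lower (median -0.70), and Six2 (-1.45, limma adjusted p = 0.0127) and Gdnf (-0.98, adjusted p = 0.0438) passed the threshold, while Wt1 gave 0.83 (adjusted p = 0.0618) and Lhx1 0.23. Pax8 and Hoxd11 were not tested, for lack of a signal well above background in all pools of a genotype. The mean level of this list was 7.38 to 7.54 in the mutant pools and 7.88 to 7.98 in the wild-type pools. Of 10 sclerotome and paraxial mesoderm genes 8 were lower (median -0.32), with Pax1 (-3.01) and Pax9 (-2.56) called at adjusted p of 0.0428 and 0.0359, and Tbx18 (0.47) and Nkx3-2 (0.13) above 0. That list ranged from 7.67 to 8.01 in the mutant pools and from 8.44 to 8.98 in the wild-type pools. The part of either tissue in the Foxd values was not tested.

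Foxp2 and Foxp4 are genes of foregut and lung, and of 10 foregut and lung bud genes 8 were lower, with a median of -0.14 and none called in limma (3 at an unadjusted p under 0.05). Nkx2-1, the lung and thyroid specifier, gave -0.88 (adjusted p = 0.0506), Isl1 -0.43, Foxa2 -0.25 and Krt8 0.39. Some lists share genes, and Isl1 is also on the second heart field list. The list mean was 11.54 to 11.57 in the mutant pools and 11.69 to 11.79 in the wild-type pools, and Pdx1 was not tested. Liver bud genes ran the other way, with 8 of 8 higher, a median of 0.88, and Ttr (0.91) and Fga (1.45) called. Of the neural tube list, Sox1, Nkx2-2, Irx3 and Dbx1 were not tested. Neural tube genes had 6 of 7 lower (median -0.41), and erythroid genes 8 of 8 lower (median -0.39). None of these was called in limma (3 neural tube and 3 erythroid genes at an unadjusted p under 0.05). Cardiomyocyte genes had 9 of 10 higher (median 0.23) and endothelial genes 7 of 8 (median 0.06), also with none called (0 and 1 at an unadjusted p under 0.05). The part of these cells in the Foxp values was not tested.

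The genes most like each member over the 7 arrays were found by Pearson correlation among 14833 genes. With so few arrays, which share slides and genotypes, 25 to 210 genes exceeded an r of 0.9 with a member. Among the genes closest to Foxp4 were Sh3bp2 (r = 0.989) and Pltp (0.969), which differed by -1.35 and -1.31 between genotypes. Foxp2 was closest to Plek2 (0.973), Ptpn1 (0.963) and Eif4ebp2 (0.957), and Foxp1 to Golph3l (0.996), Rcn3 (0.996) and 1190002F15Rik (0.990). For the Foxd genes the leading names were Smox (0.989), Pitpnm1 (0.976) and Smarce1 (0.973) for Foxd1, Rerg (0.983), Itpk1 (0.981) and Cldn11 (0.979) for Foxd2, and Rgl3 (0.978), Rasl2-9 (0.967) and Ttc26 (0.966) for Foxd3.

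RefSeq start site windows (GRCm38.p6, 300 bases, around the start of the transcript) were held for 7 members in 10 promoters, with none for Foxp2. GC content was 70.3% for Foxp4, 67.7% for Foxd2, 65.7% for Foxd3, 57.7% for Foxd1, 49.0% for Foxd4, 48.7% to 75.3% over 3 promoters of Foxp1 and 40.7% and 47.7% for Foxp3, against a median of 52.7% over 32851 promoters. Searched on both strands, the Gli motif TGGGTGGTC (in 0.253% of all promoters), its shorter form GGGTGGTC (0.807%), the forkhead motif GTAAACA (3.65%) and the T-box motif AGGTGTG (5.84%) were in 0 of the 10. The longer Gli motif contains the shorter one. TATAAA (13.6%) was in 1, a Foxp3 promoter. These letters being absent from a short window says nothing about the factors.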

How the data were processed

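The authors' deposited scan files hold mean signal and local background intensity per spot, read by Feature Extraction 10.5.1.1. A further deposited file holds the authors' processed values on the log2 scale, whose medians differed between arrays. Mean signals were corrected by normexp with background estimated from 153 negative control spots (offset 50), 155 to 206 outlier spots per array were removed, and arrays were normalized by an own implementation of VSN (trimming share 0.9, 7 iterations, 5 strata, fitted on every 3rd complete spot), the methods' normalization. Spots of a probe were averaged. Tests took named probes with a signal well above background in all pools of either genotype and values on at least 2 arrays per group (23129 probes, 14896 genes). Probes of a gene were read by the brightest one, with the others beside it.

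Genotypes (4 Shh -/- and 3 wild-type pools) were compared with limma 3.58.1 in R 4.3.3 (package data.table, version 1.17.8) and Benjamini-Hochberg adjustment over all tested probes. SAM, rewritten here, was an alternative. Slide pairs the replicate numbers, as the labels' slide barcodes give it; deviations of same-slide arrays correlated at 0.192, 0.239 and 0.0328. The scripts were tested on simulated data. Precision is limited by the 7 arrays. The p-values set the genotype difference against the spread between pools, each measured on 1 array. Named genes were all members, Shh, up to 4 genes per list with the smallest p, and the 3 genes most like each tested member; some of these are not reported here. Members and lists were chosen with earlier results of these data known. Plots used matplotlib 3.10.9 (Python 3.11.15). Alternatives were quantile and 75th percentile scaling, other or no background correction, outlier spots kept, the authors' values, no filter, an interquartile range filter, SAM, a variance trend, array weights, slide as a fixed or random block, and leaving out each array. The authors' values set to 1 median were added after seeing the data.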

Additional observations from a re-analysis of the deposited data

How the results depend on the processing

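No member probe passed an adjusted p under 0.05 under any of the 21 alternatives. Among the brightest probes of the 6 tested genes, the lowest adjusted p was that of Foxp4 with array weights (0.085), a fit that wild-type pool 3 dominated. Foxd1, Foxd2, Foxd3, Foxp2 and Foxp4 stayed lower in all 21, at -1.20 to -0.29, -0.82 to -0.16, -1.08 to -0.37, -1.04 to -0.30 and -0.86 to -0.25. The count lower at an unadjusted p under 0.05, 8 as reported, was 0 in the authors' values, 2 in those set to 1 median (chosen after seeing the data), 5 with the interquartile range filter, 4 with array weights and 3 to 8 with 1 array left out. In the authors' values the median of all tested probes was -0.54, Foxp1 gave -0.30, and all 11 member probes were lower, so changes there are read relative to that shift. Array medians in those values ran from 5.5 in mutant pool 2 to 9.93 in mutant pool 4. The SE there was 1.14 for each of the 6 tested members, so the count of 0 says little about them. With slide as a replicate block, 9 of the 11 member probes were lower, 8 of them at that level, and no call on a member changed; over all probes 10 lower and 1 higher passed in place of 66 and 55. That split was 37 and 19 with 75th percentile scaling, 54 and 49 with quantile normalization, 20 and 2 with normexp on local background, 197 and 246 with array weights and 136 and 127 in SAM.

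Foxd1 minus Foxd3, 0.01 as reported, was -0.22 with quantile normalization, 0.00 with the 75th percentile, -0.01 with local background, -0.12 without background correction and in both forms of the authors' values, -0.08 with the replicate block and -0.08 to 0.13 with 1 array left out. Leaving out 1 array gave -0.29 to 0.01 for Foxd1 minus Foxd2 and -0.16 to 0.07 for Foxp2 minus Foxp4. Foxp1 minus Foxp4 was 0.33 to 0.68 and Foxp1 minus Foxp2 0.41 to 0.74 over 15 alternatives. Within slides the Foxp1 minus Foxp4 contrast had an exact p of 0.25, the smallest that 3 pairs allow. The causes were not tested. Foxd2, Foxd3 and Foxp4 were dim, which can limit their folds. Unnormalized signal was 104 to 158 intensity units for Foxd3 and 94.8 to 156 for the brightest Foxp4 probe.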

Other observations

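A probe annotated to AK086365 lies 2726 bases from a Foxd1 probe in the array annotation. It was chosen after its values were seen. It measured 5.53, 5.65, 5.49 and 5.41 in mutant pools 1 to 4 and 6.53, 6.08 and 5.97 in wild-type pools 1, 3 and 4, with no overlap. The difference was -0.67 (limma adjusted p = 0.136, over probes with and without a gene name). Whether it reads the Foxd1 transcript was not tested. Ccdc22, whose probe lies beside that of Foxp3, gave -0.10 with overlapping genotypes.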
